A study of Mus musculus with 8 samples.

Results

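The first 1000 peaks of the deposited glucocorticoid receptor (GR) peak list are described here. They are the first 1000 rows in the order of the list, once rows on the mitochondrial genome and on chromosome Y had been dropped, and they make up 1000 of 23187 GR peaks (4.31%). The sources used here do not state what the order means, and the list gives no score, fold or summit. The members were chosen by place in that order, which may come from a readout of the GR library. Width and spacing of GR peaks are therefore descriptions, and comparisons rest on the other antibodies, on genes and on sequence.

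The study mapped GR, RNA polymerase II (Pol2), the insulator protein CTCF and the histone marks H3K27ac, H3K4me1 and H3K4me3 by chromatin immunoprecipitation with sequencing in mouse skeletal muscle. Every library came from muscle nuclei of wild-type mice of the strain C57/Bl6J aged 10 to 12 weeks, with no treatment named. Each antibody had 1 library, and 2 inputs served as controls, Input1 for GR, H3K27ac, Pol2 and H3K4me1 and Input2 for CTCF and H3K4me3, 8 libraries in all. The series' design text gives 10 weeks as the age, and the muscles taken and any pooling of animals were not given in the sources used here. Without replicates, each interval below is a 95% interval for counting error over peaks and none measures variation between animals. Neighbouring peaks are not independent, so intervals can be too narrow, and the libraries' read depths were not given in the sources used here.

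GR is a steroid-activated transcription factor. As a dimer it binds the glucocorticoid response element (GRE), an imperfect palindrome of hexamers separated by a short spacer, and it can also be held on chromatin by other factors. Active enhancers carry H3K4me1 with H3K27ac, and active promoters carry H3K4me3. In muscle, glucocorticoids are known for inducing genes of protein breakdown, fuel choice and feedback on the hormone itself.

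The first sequences shown are the first 12 rows, in file order, whose central 200 bases held a GRE and whose window of 61 bases met no annotated UTR. They show what the receptor's element looks like at the top of the list. The GRE was searched as GNACANNNTGTNC on both strands, and capitals mark its fixed bases. Positions are on mouse build GRCm38 (mm10), on the plus strand.
Klf13 intron, row 3, chr7:63897066-63897126: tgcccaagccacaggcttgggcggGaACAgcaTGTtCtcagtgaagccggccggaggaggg
Per1, row 7, chr11:69099393-69099453: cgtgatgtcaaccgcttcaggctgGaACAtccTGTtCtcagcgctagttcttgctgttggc
Arrdc2, row 11, chr8:70833697-70833757: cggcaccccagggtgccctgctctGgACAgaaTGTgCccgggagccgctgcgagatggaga
Syk, row 14, chr13:52736431-52736491: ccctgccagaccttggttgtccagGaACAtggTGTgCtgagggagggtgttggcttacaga
Plin3, row 15, chr17:56293062-56293122: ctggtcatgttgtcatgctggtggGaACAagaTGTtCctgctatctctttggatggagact
Pdlim5, row 18, chr3:142372619-142372679: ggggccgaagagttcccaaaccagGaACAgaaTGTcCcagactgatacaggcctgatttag
Map1lc3a, row 19, chr2:155293593-155293653: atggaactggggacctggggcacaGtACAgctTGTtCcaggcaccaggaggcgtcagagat
Fbxo31, row 23, chr8:121563165-121563225: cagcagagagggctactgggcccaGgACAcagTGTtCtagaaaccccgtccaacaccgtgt
Klf15, row 24, chr6:90471366-90471426: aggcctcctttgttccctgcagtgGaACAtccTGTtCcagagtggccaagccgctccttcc
Tns1, row 26, chr1:74014780-74014840: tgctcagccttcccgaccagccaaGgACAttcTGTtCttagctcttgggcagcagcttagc
Cdkn1a, row 28, chr17:29094676-29094736: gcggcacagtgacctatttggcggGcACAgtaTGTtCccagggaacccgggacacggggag
Trp53inp1, row 32, chr4:11123862-11123922: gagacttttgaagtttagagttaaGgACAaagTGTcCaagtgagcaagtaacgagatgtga

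These 12 rows belonged to 8 enhancer-class and 4 promoter-class peaks. Row 7 lay 477 bases from a start site of Per1, a clock gene, and row 28 lay 910 bases from one of Cdkn1a, which encodes the cell-cycle inhibitor p21. Row 24 lay in an intron of Klf15, a Krüppel-like transcription factor gene of muscle metabolism, and row 23 in an intron of Fbxo31, a ubiquitin ligase subunit. Row 19 lay in an intron of Pigu, 17335 bases from the start of Map1lc3a, which encodes an LC3 protein of autophagosomes. Row 15 was 252 bases from a start of Plin3, a lipid-droplet protein gene, and had H3K4me1 and H3K27ac without H3K4me3. Row 26 lay in an intron of Tns1, the gene of the focal adhesion protein tensin, and row 18 in one of Pdlim5, a sarcomeric scaffold. Outside genes, row 11 lay 5949 bases from Arrdc2, an arrestin-domain gene, row 14 lay 139595 bases from Syk, a kinase gene, and row 32 lay 32556 bases from Trp53inp1, a stress-response gene. Row 3 lay in an intron of Klf13, with E030018B13Rik as the nearest protein-coding start at 19779 bases. Between the GREs at rows 3, 7, 23 and 26 and the full palindrome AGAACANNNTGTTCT there was 1 mismatch, and the one at row 11 had 4.

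A GRE stood in the central 200 bases of 356 of the 1000 peaks (35.6%, exact 95% interval 32.6 to 38.7%). In all GR peaks the share was 5.52%. In the remaining 22187 it was 4.17% (3.91 to 4.44%), a first-minus-remaining difference of 31.4 percentage points (28.5 to 34.5). Windows 2 kb away that met no GR peak held a GRE in 0.528% beside the first 1000 peaks and in 0.331% beside the remaining ones. The first 1000 rows, 4.31% of the list, thus held 27.8% of all 1280 GR peaks with a GRE. Over the whole peak in place of the central window, a measure added after seeing the data, 40.3% of the first 1000 and 4.44% of the remaining peaks had one. Of the first 10 rows, 2 had a GRE in the central window and 7 had one somewhere in the peak.

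Perfect palindromes were rare and near matches common. The full palindrome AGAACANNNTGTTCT was found in 10 of the first 1000 peaks (1%, against 0.177% of all GR peaks). Up to 3 mismatches were met in 58.3% (55.2 to 61.4%) of the first 1000 and in 16.3% (15.9 to 16.8%) of the remaining peaks. Among the 10 peaks with the perfect palindrome, row 236 lay in an intron of Hk2, the gene of the muscle hexokinase, 1745 bases from a start. Row 172 lay in an intron of P4ha2, a collagen prolyl hydroxylase gene, and row 382 in one of Prkca, which encodes a protein kinase C. Rows 50, 87, 203, 272, 550, 664 and 998 completed the 10, and all of these except row 998 carried a histone mark. Among all GR peaks a mark was common too, with none at 4.50% of the first 1000 and 6.88% of the remaining rows. These genes were chosen after their values were seen.

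Few GREs shared a full spelling, and most lay close to the middle of their peaks. The 356 peaks held 361 GRE places, which spelled 314 different words of 15 bases, and 274 of these words occurred in a single peak. No word occurred in more than 3 of the first 1000 peaks. The GRE pattern leaves many of the 15 bases free, so varied words follow in part from the search itself. Their variety was not compared with that in the remaining rows. The 7 words that occurred in 3 peaks, 0.3% of the first 1000 each, are shown as the most frequent. Each is named by the first row that held it, with capitals for the fixed bases of the GRE. In the remaining rows the row 15, row 340 and row 556 words occurred 1, 4 and 3 times, and the others not at all. Each word is written in the strand orientation that comes first alphabetically. The row 7 word is therefore the reverse complement of the plus-strand sequence shown for row 7 above. Mismatches to the palindrome ran from 1 for the row 7 word to 3 for the row 41 word.
row 7 word: aGaACAggaTGTtCc
row 15 word: gGaACAagaTGTtCc
row 41 word: gGaACAttcTGTcCa
row 99 word: gGaACAgaaTGTtCa
row 185 word: aGgACAggcTGTtCc
row 340 word: aGcACAggcTGTtCc
row 556 word: aGgACAgcaTGTtCc
The GRE nearest to the peak midpoint lay at a median of 18 bases from it, and at no more than 25 bases in 63.8% of these peaks. The remaining GR peaks with a GRE had a median of 16 bases and 67.5% within 25 bases. Of the 361 places, 100 (27.7%) had 1 perfect hexamer and 10 (2.77%) had both. Of the 926 places in the remaining rows, 290 (31.3%) had 1 and 31 (3.35%) had both. By this measure GREs of the first 1000 rows were not closer to the palindrome than those of the remaining rows.

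**Figure D1:**
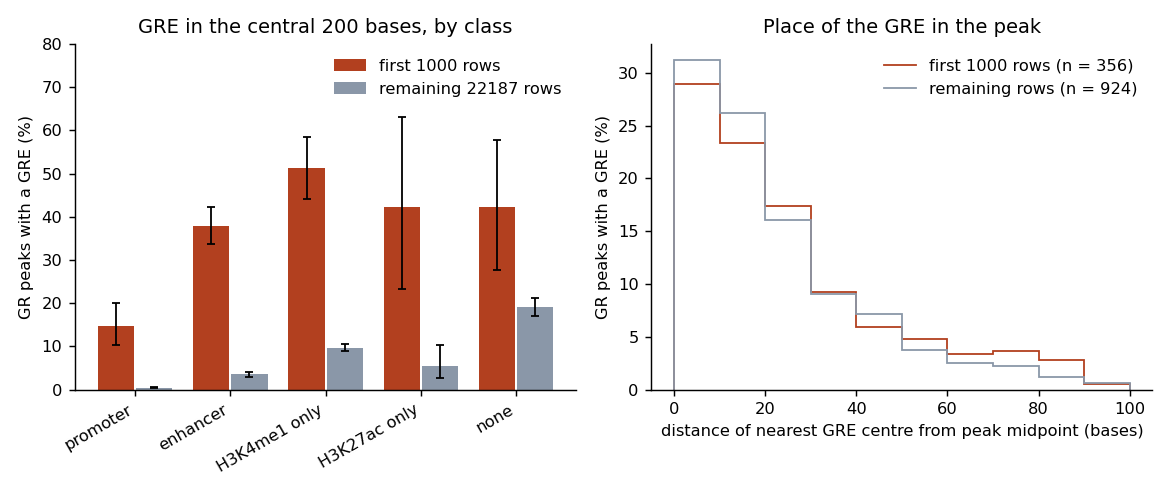
Left, the share of GR peaks (%) with a GRE in the central 200 bases, by class of histone marks, for the first 1000 rows and the remaining 22187, with exact 95% intervals for counting error. Right, the distance in bases between the nearest GRE and the peak midpoint, as a share (%) of the peaks with a GRE in bins of 10 bases. The first rows were higher in every class, and in both groups most GREs lay near the midpoint.

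Every class of chromatin showed the higher GRE share. In the enhancer class it was 37.8% (191 of 505) in the first 1000 and 3.53% in the remaining rows. For peaks with H3K4me1 as the only mark it was 51.3% (102 of 199) against 9.70%. Promoter-class peaks had the lowest shares, 14.7% (33 of 225) against 0.454%. Peaks without a mark had 42.2% (19 of 45) against 19.1%, and those with H3K27ac only had 42.3% (11 of 26) against 5.56%. Within 1 kb of a protein-coding transcription start site (TSS) the shares were 10.9% and 0.590%, and farther away they were 40.8% and 7.48%. The higher share at the top of the list was seen both near a TSS and away from one.

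Within the first 1000, peaks with and without a GRE differed in place and marks. The 356 with a GRE lay at a median of 23138 bases from a TSS and the 644 without one at 14177 bases. Pol2 overlapped 29.5% of those with a GRE and 50.3% of those without. Promoter-class peaks made up 9.27% of those with a GRE and 29.8% of those without, and H3K4me1-only peaks made up 28.7% and 15.1%. The remaining rows differed in the same directions. With and without a GRE, their median distances were 23936 and 1017 bases, and Pol2 overlapped 5.63% and 53.7%. Promoter-class peaks made up 5.95% and 56.7% of them, and H3K4me1-only peaks 46.4% and 18.8%.

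Other motifs differed by less, or were less common at the top of the list. The hexamer AGAACA, which also stands inside the palindrome, was found in 33.1% of the first 1000 peaks and 16.4% of the remaining ones, a difference of 16.7 points (13.8 to 19.7). The MyoD E-box CAGCTG was found in 22.3% and 18.04%, a difference of 4.26 points (1.74 to 6.99). More than 1 kb from a TSS its shares were 24.33% and 24.02%, a difference of 0.316 points (-2.60 to 3.45). The TEAD motif CATTCCA was found in 5.00% and 2.75% (difference 2.25 points, 1.04 to 3.79), and NF1, TGGCNNNNNGCCA, in 1.50% and 0.861% (0.639 points, 0.0360 to 1.61). More than 1 kb from a TSS the TEAD difference was 1.55 points (0.119 to 3.38). The NF1 difference there was 0.521 points, and its interval included 0 (-0.225 to 1.695). For all GR peaks the shares were 17.1% for AGAACA, 18.2% for the E-box, 2.85% for TEAD and 0.888% for NF1.

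Motifs of promoters were scarcer. The SP/KLF box GGGCGGG was found in 11.1% of the first 1000 against 25.4% of the remaining rows (all GR peaks 24.8%), a difference of -14.3 points (-16.2 to -12.2). NRF1, GCGCNNGCGC, was found in 1.20% against 6.24% (all GR peaks 6.02%), ETS, CCGGAAGT, in 0.4% against 3.42% (all 3.29%), and YY1, AAGATGGCG, in 0.200% against 1.61% (all 1.55%). CTCF, CCNNNAGGNGGC, was found in 2.30% against 4.27% (all 4.18%). Inside the promoter class the SP/KLF box was in 33.8% of the first 1000 and 43.0% of the remaining peaks, and in the enhancer class it was in 5.15% and 4.16%. The GC content of the central window had a median of 53.5% in the first 1000 and 58.5% in the remaining rows, and its part in these differences was not tested.

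For 8 further motifs the interval of the difference over all classes included 0. The shares, first rows before remaining ones, were 7.60% and 7.03% for AP-1 (TGANTCA), 8.70% and 7.47% for C/EBP (TTGCNNAA) and 3.30% and 2.47% for FOX (TGTTTAC). They were 3.00% and 2.79% for MEF2, 3.10% and 2.78% for RUNX (AACCACA), 1% and 1.40% for CREB (TGACGTCA), 0.700% and 0.983% for ERR (TNAAGGTCA) and 0.5% and 0.780% for SRF. Over all GR peaks the shares were 7.05% for AP-1, 7.52% for C/EBP, 2.51% for FOX, 2.79% for MEF2 and RUNX, 1.38% for CREB, 0.97% for ERR and 0.768% for SRF. Inside classes some intervals did not include 0, and those given here were picked after their values were seen. Many such intervals were computed without correction, so some can miss 0 by counting error alone. C/EBP was found in 8.89% of promoter-class first rows and 4.34% of the remaining ones (difference 4.55 points, 1.46 to 9.001). AP-1 more than 1 kb from a TSS was found in 8.72% and 11.04% (-2.32 points, -4.15 to -0.127), and MEF2 in the enhancer class in 3.76% and 6.34% (-2.57 points, -4.13 to -0.412). MEF2 and SRF are muscle regulators whose degenerate motifs are given by name. The plot of motif differences places the GRE first, with AGAACA next.

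**Figure D2:**
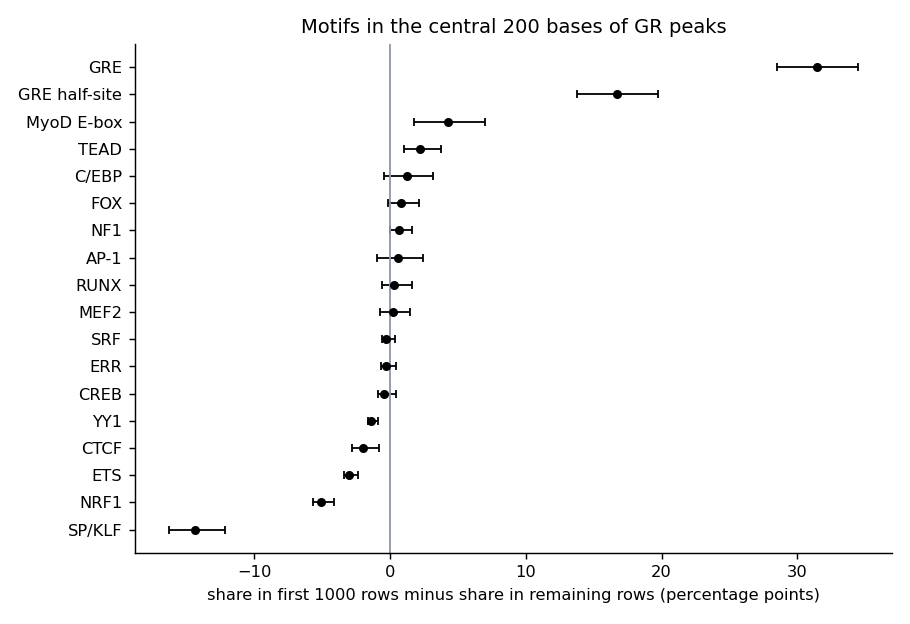
Difference in the share of GR peaks with each motif in the central 200 bases, first 1000 rows minus remaining rows, in percentage points, with 95% intervals for counting error. The GRE lies at 31.4 points and SP/KLF at -14.3, and most other motifs lie within 5 points of 0.

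The first 1000 peaks sat mainly in enhancer chromatin. Peaks with H3K4me1 and H3K27ac and no H3K4me3, the enhancer class, made up 505 of them (50.5%, exact 95% interval 47.4 to 53.6%), where all GR peaks had 19.3%. The remaining rows had 17.9% (17.4 to 18.4%), a difference of 32.6 points (29.5 to 35.8). The promoter class, with H3K4me3, held 225 (22.5%), where all GR peaks had 53.2% and the remaining rows 54.6%, a difference of -32.1 points (-34.7 to -29.3). H3K4me1 was the only mark at 19.9% of the first 1000, 19.9% of all GR peaks and 19.9% of the remaining rows, a difference of -0.0351 points (-2.45 to 2.60). H3K27ac was the only mark at 2.60% (0.811% of all GR peaks, 0.730% of the remaining rows), and 4.50% had none of the 3 marks (6.78% of all, 6.88% of the remaining rows). The direction of this last difference, -2.38 points, turned to 1.75 points within 10 strata of GR peak width, and its interval included 0 with 50% of the GR peak covered (-1.56 points, -3.05 to 0.246) and in the central 200 bases (-1.50 points, -2.78 to 0.112).

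**Figure D3:**
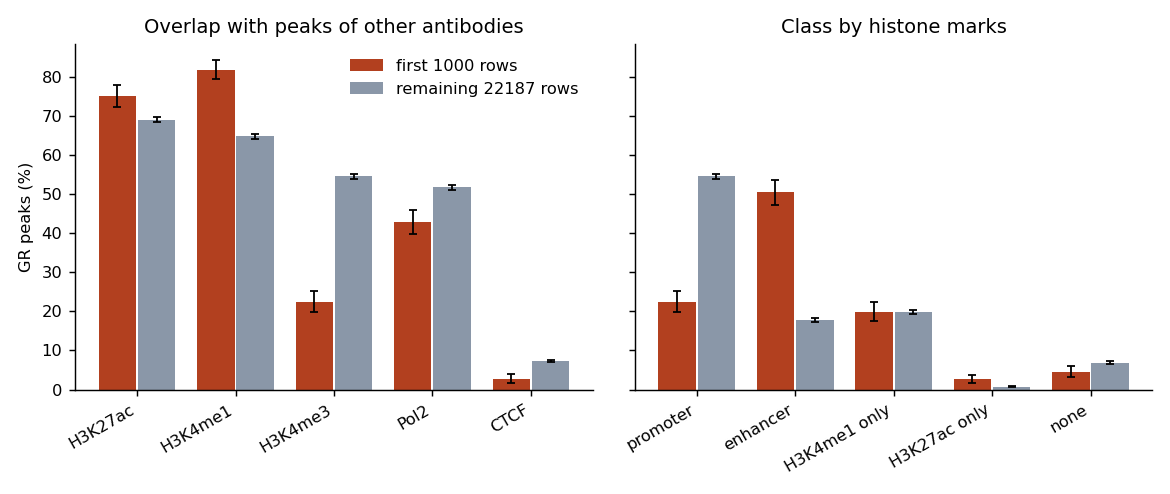
Share of GR peaks (%) that overlapped a peak of each other antibody by at least 1 base (left) and share in each class of histone marks (right), for the first 1000 rows and the remaining 22187, with exact 95% intervals for counting error. The enhancer class held 50.5% of the first rows and 17.9% of the others.

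Mark by mark, H3K4me1 overlapped 819 of the first 1000 (81.9%; all GR peaks 65.6%) and 64.9% of the remaining rows, a difference of 17.0 points (14.5 to 19.4). H3K27ac overlapped 752 (75.2%; all GR peaks 69.3%) and 69.0% of the remaining rows, a difference of 6.15 points (3.32 to 8.80). This acetylation difference changed with the setting, and why was not tested. Within 10 strata of GR peak width it was -11.6 points, and with only the central 200 bases of each peak it was -0.265 points (-3.30 to 2.65). CTCF overlapped 27 (2.70%; all GR peaks 7.09%) and 7.28% of the remaining rows, a difference of -4.58 points (-5.49 to -3.34). GR, H3K4me1, H3K27ac and Pol2 were set against one input and H3K4me3 and CTCF against the other, so the input and the mark cannot be told apart.

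Pol2 overlapped 429 of the first 1000 (42.9%; all GR peaks 51.3%) and 51.7% of the remaining rows, a difference of -8.83 points (-11.9 to -5.67). Its size depended on the setting, with -30.2 points within 10 strata of width, -3.17 points (-5.46 to -0.879) for the first 2000 rows and -3.22 points for the first 500, where the interval included 0 (-7.61 to 1.21). Inside each of the main active classes the order was the opposite. In the enhancer class Pol2 overlapped 203 of 505 (40.2%) against 25.5%, a difference of 14.7 points (10.3 to 19.3), and in the promoter class 207 of 225 (92.0%) against 83.9% (8.06 points, 3.72 to 11.01). Enhancer-class peaks with Pol2 made up 20.3% of the first 1000, 5.23% of all GR peaks and 4.55% of the remaining rows. Where H3K4me1 was the only mark, Pol2 overlapped 3.02% against 3.37%. Enhancer-class peaks had a median width of 344 bases in the first 1000 and 208 bases in the remaining rows, and the part of width in the differences inside classes was not tested.

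The peaks that the first 1000 touched also had their own sizes. H3K4me1 peaks touched by them had a median width of 5218.5 bases, against 3348 bases for those touched by the remaining rows. In the enhancer class alone these medians were 6352 and 6214 bases. H3K4me3 peaks touched by the first 1000 had a median fold of enrichment of 27.9 in the authors' deposited values, with quartiles at 11.7 and 46.5, and those touched by the remaining rows had 34.8, with quartiles at 21.98 and 46.1. Among promoter-class peaks, 72 of 225 in the first 1000 lay more than 1 kb from any protein-coding TSS. In the remaining rows 1891 of 12113 did, a smaller share. With the TSS of all annotated genes, 49 of the 225 and 1309 of the 12113 lay more than 1 kb away.

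Distance from genes differed too. Only 174 of the first 1000 (17.4%; all GR peaks 46.8%) had their midpoint within 1 kb of the TSS of a protein-coding gene, and 48.1% of the remaining rows did, a difference of -30.7 points (-33.0 to -28.2). Introns held 41.8% (all GR peaks 26.2%) and intergenic DNA 37.2% (all 24%), against 25.5% and 23.4% of the remaining rows, and exons held 3.60% (all 2.97%) against 2.94%. Within 5 kb lay 28.2% (all GR peaks 56.4%) against 57.7%. Between 5 and 25 kb from a TSS lay 31% (all 19.2%) against 18.7%, between 25 and 100 kb 27.5% (all 17.2%) against 16.8%, and beyond 100 kb 13.3% (all 7.19%) against 6.91%. The median distance to a protein-coding TSS was 17515 bases for the first 1000 and 1401 bases for the remaining rows. By class, the medians (first, then remaining rows) were 201 and 85 bases for promoter and 22013 and 17379.5 for enhancer peaks. They were 29018 and 23805 bases where H3K4me1 was the only mark, and 55407 and 40796 without a mark.

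Marks and motif also differed along the list inside the first 1000. In consecutive blocks of 100 rows the GRE share was 57%, 50%, 37%, 37%, 34%, 33%, 35%, 27%, 22% and 24%. The enhancer class held 69% of the first 100 rows and 37% of the last 100, and the promoter class 23% and 35%. H3K27ac overlapped 92% of the first 100 rows and 74% of the last 100, and Pol2 68% and 44%. H3K4me1-only peaks were 7% of the first 100 rows and 19% of the last 100, with the highest block, rows 501 to 600, at 30%. A GRE lay somewhere in the peak in 72 of the first 100 rows.

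Lower GRE shares continued past row 1000. In blocks of 1000 rows over the whole list the GRE share was 35.6%, 16.6%, 9.10% and 7.30% in the first 4 blocks, and lay between 1% and 2.20% in blocks 18 to 23. The median row with a GRE stood at place 3319.5 and the median row without one at 11983. The last 10 of the first 1000 rows had widths of 232 to 749 bases with a median of 336, and the next 10 rows had 189 to 724 with a median of 332.5. Of those last 10 rows 2 were enhancer class and 4 promoter class, and of the next 10 rows 4 were enhancer class and 3 promoter class.

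**Figure D4:**
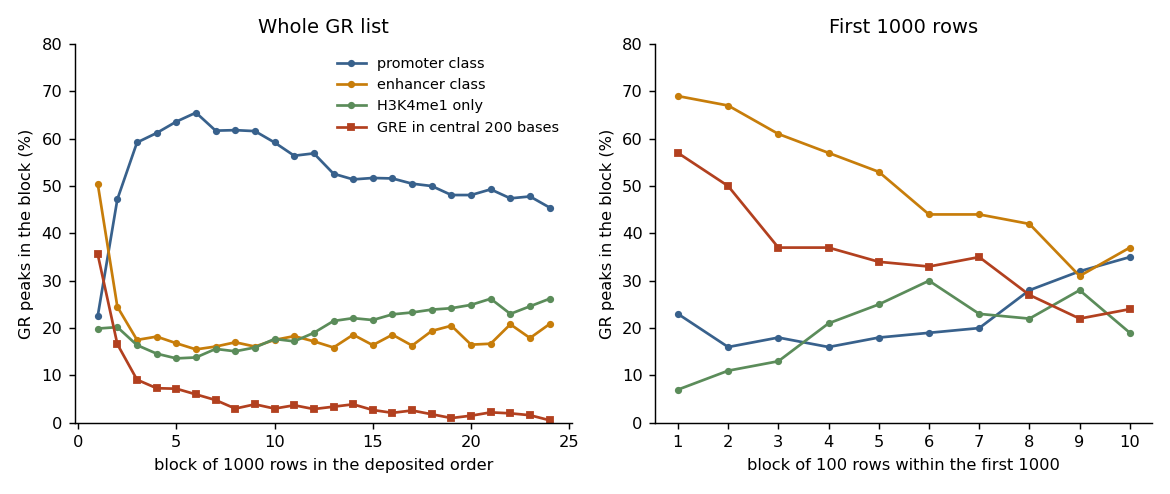
Share of GR peaks (%) in the promoter class, in the enhancer class, with H3K4me1 only and with a GRE in the central 200 bases, in blocks of 1000 rows along the whole list (left; the last block has 187 rows) and in blocks of 100 rows within the first 1000 (right). The GRE share was 57% in the first 100 rows, 35.6% in the first 1000 and between 1% and 2.20% in blocks 18 to 23 of the whole list.

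Width went with place as well, which describes the list only since both come from the GR library. The first 1000 peaks had a median width of 331 bases (171 to 3191), and the remaining rows 207 bases (123 to 4129). The median was 476.5 bases in the first 100 rows and 313 in rows 901 to 1000. Numbers in the peak names ran upward in short stretches, 308 in the first 1000 rows with a mean of 3.25 rows, and in 328 stretches with a mean of 67.6 rows in the remaining list.

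The first 10 rows lay between 477 and 116106 bases from the nearest protein-coding TSS, and some were closer to another annotated start, such as row 5 at 137 bases and row 3 at 545 bases. Row 1 spanned positions 28517449 to 28518587 of chromosome 17, a width of 1139 bases, at 494 bases from a TSS of Fkbp5, the co-chaperone that restrains steroid receptors. It carried all 3 histone marks and Pol2. Row 4 lay in an intron of Fkbp5. Row 2 lay in intergenic DNA 87595 bases from Ptpn1, which encodes a phosphatase of the insulin receptor, and row 5 in an intron of Hif3a, a hypoxia-inducible factor gene. Row 6, 1081 bases wide, lay in an intron of Zbtb16, a zinc-finger transcription factor gene, 111990 bases from its nearest TSS. Row 8 lay 22715 bases from Ddit4, the gene of an inhibitor of mTOR signalling, row 9 lay 84042 bases from Klf9, a Krüppel-like factor gene, and row 10 lay 116106 bases from Usp24, a deubiquitinase gene. With rows 3 and 7 described above, 7 of the first 10 rows were enhancer class and 3 promoter class, and all 10 overlapped H3K27ac, H3K4me1 and Pol2.

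The 10 widest of the first 1000 peaks held 7 promoter-class and 3 enhancer-class peaks, and 4 of the 10 had a GRE in the peak. The widest, row 452 with 3191 bases, extended over the start of Pnmt, which encodes an enzyme of adrenaline synthesis. Row 158, 2944 bases wide, lay 5950 bases from Klf9, row 905, 2295 bases wide, lay in Plin4, a lipid-droplet gene of muscle, and row 51, 1234 bases wide, lay 142352 bases from Irf2bp2, a corepressor gene. These 4 had the GREs. Row 350, 1677 bases wide, lay 547 bases from a TSS of Atp2a1, whose product pumps calcium back into the reticulum of fast fibres. Row 256 lay 61 bases from a TSS of Kmt5b, a histone methyltransferase gene, and row 30 lay 332570 bases from Foxo1, a forkhead factor gene of atrophy. Rows 775 and 772 had Gata5 and Esp38 as their nearest protein-coding genes, at 51124 and 102358 bases. Other annotated starts were closer, B230312C02Rik at 62 bases from row 775 and CT010467.1 at 39 bases from row 772. Row 772 overlapped neither Pol2 nor H3K27ac.

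Some of the first 1000 rows stood in groups. With a gap of at most 10 kb they formed 928 regions, of which 873 held 1 row, 55 held at least 2, 8 held at least 3 and 4 held at least 4. Another GR peak of the whole list lay within 10 kb of 64.3% of the first 1000 and of 55.9% of the remaining rows, and within 1 kb of 29.5% and 29.4%. Whether neighbouring peaks are separate binding sites was not tested. The 8 groups of at least 3 rows held 33 rows, of which 31 overlapped Pol2, 21 were enhancer class and 16 had a GRE in the peak. Over all first 1000 rows, 42.9% overlapped Pol2, 50.5% were enhancer class and 40.3% had a GRE in the peak.

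The largest group lay at Fkbp5, with 7 of the first 1000 rows on chromosome 17 from 28512618 to 28523646, a span that held 12 GR peaks in all. Of these 7, 4 were enhancer-class peaks in introns and 3 were promoter-class peaks, all 7 overlapped Pol2 and 4 held a GRE. Within 25 kb of a TSS of Fkbp5 lay 9 of the first 1000 rows and 17 of the remaining ones. At Zbtb16 6 rows stood on chromosome 9 from 48723415 to 48749494, in introns, and all 6 were enhancer class with Pol2. The nearest TSS of Zbtb16 was between 86637 and 111990 bases away. Arrdc2 had 4 rows on chromosome 8 from 70832302 to 70839647, 3 of them enhancer class and 1 at its promoter. Tsc22d3, the gene of the anti-inflammatory protein GILZ, had 4 rows on chromosome X from 140505860 to 140529456, which lay between 13930 and 37197 bases from its TSS.

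The GREs of these 4 groups are shown to compare the elements that lie together at 1 gene, each within 31 bases, on the plus strand of GRCm38, with the fixed bases in capitals. One GRE of row 11 at Arrdc2 is already in the sequences above. The groups were chosen after their values were seen.
Fkbp5, row 560, chr17:28513894-28513924: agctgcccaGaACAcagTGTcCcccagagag
Fkbp5, row 1, chr17:28518171-28518201: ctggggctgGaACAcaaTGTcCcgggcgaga
Fkbp5, row 500, chr17:28519023-28519053: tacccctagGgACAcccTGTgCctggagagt
Fkbp5, row 25, chr17:28523169-28523199: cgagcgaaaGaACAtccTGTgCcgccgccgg
Zbtb16, row 6, chr9:48723695-48723725: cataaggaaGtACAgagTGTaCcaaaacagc
Zbtb16, row 102, chr9:48736499-48736529: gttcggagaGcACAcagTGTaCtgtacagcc
Zbtb16, row 46, chr9:48737593-48737623: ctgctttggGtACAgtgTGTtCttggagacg
Zbtb16, row 366, chr9:48740255-48740285: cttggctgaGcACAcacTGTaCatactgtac
Zbtb16, row 366, chr9:48740264-48740294: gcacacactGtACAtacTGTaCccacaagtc
Arrdc2, row 308, chr8:70832526-70832556: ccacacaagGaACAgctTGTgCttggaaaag
Arrdc2, row 11, chr8:70833639-70833669: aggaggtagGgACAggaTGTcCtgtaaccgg
Tsc22d3, row 381, chrX:140505957-140505987: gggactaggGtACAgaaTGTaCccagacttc
Tsc22d3, row 76, chrX:140513546-140513576: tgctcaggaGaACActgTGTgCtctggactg
No pair of them has the same 15-base core. Mismatches to the full palindrome ran from 2 to 4 at Fkbp5 and at Zbtb16, from 2 to 4 at Arrdc2, and were 4 at row 381 and 1 at row 76 at Tsc22d3. Both GREs of row 366 at Zbtb16 overlap each other.

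The other groups of 3 rows lay near Ptpn1, between Ddit4 and Anapc16, near Frmd8 and at Atp2a1. The Ptpn1 group, rows 2, 83 and 91, was enhancer class throughout and lay 71569 to 87595 bases from the TSS. Rows 8, 22 and 225 stood between Ddit4 and Anapc16, a subunit gene of the anaphase-promoting complex, and rows 8 and 225 had a GRE. Rows 305, 350 and 513 stood at Atp2a1, and row 305, 1737 bases from a TSS, had a GRE.

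Per gene, the first 1000 rows were sparse. Of 21728 protein-coding genes, 881 (4.05%) had such a peak within 25 kb of a TSS, while 58.6% had any GR peak there. Among the 881, 803 had 1, 65 had 2 and 13 had at least 3. Of the 10159 genes with Pol2 within 1 kb of a TSS, 686 (6.75%) had one. In all, 592 of the first 1000 rows were within 25 kb of the TSS of a protein-coding gene. Genes with 4 rows included Arrdc2, its neighbour Kcnn1, a potassium channel gene, and Tex14, a germ-cell gene. Armc12 had 7 rows, all shared with Fkbp5. Genes with 3 included Atp2a1 and its neighbour Sh2b1, a signalling adaptor gene, which shared all 3, Tns1, Tob2, an antiproliferative gene, and Rpl29, a ribosomal protein gene.

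Among the gene lists, which were chosen with earlier results of these data known, the GR targets had the highest share. One of the first 1000 rows lay within 25 kb of 18 of 25 GR targets (72%). The shares were 4.05% for all protein-coding genes and 6.75% for those with Pol2 at a TSS. Some GR peak lay there at all 25 targets, at 58.6% of all protein-coding genes, 92.8% of those with Pol2 and 100% of housekeeping genes. Of the first 1000 rows, 55 had a GR target as their nearest gene, of which 54.5% were enhancer class, 34.5% were promoter class and 50.9% had a GRE in the peak. Over all first 1000 rows these shares were 50.5%, 22.5% and 40.3%. Of the remaining rows, 195 had a GR target as their nearest gene, of which 31.8% were enhancer class, 29.2% were promoter class and 9.74% had a GRE in the peak.

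GR targets differed in where these rows stood. Per1 had 2, rows 7 and 71, both promoter class with a GRE. Klf15 had 2, rows 24 and 792, in its introns, both enhancer class with a GRE and without Pol2. Glul, which encodes glutamine synthetase, had rows 300 and 901 at its promoter, and row 300 had a GRE. Sgk1, a kinase gene of ion transport and cell survival, had rows 673 and 728 at promoters, 41 and 55 bases from a TSS, and row 673 had a GRE. Pdk4, the kinase that restrains pyruvate oxidation, had row 277, 13797 bases away with H3K27ac as its only mark. Dusp1, a phosphatase of MAP kinases, had row 463, 22318 bases from a TSS, in an intron of the annotated gene, without a GRE and without Pol2. Klf9 had row 158. Cebpd, a C/EBP factor gene, had none within 25 kb, and rows 255 and 619 lay in introns of Spidr, 61262 and 68767 bases from its TSS.

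Metabolic lists had lower shares, to be read beside 4.05% of all protein-coding genes, 6.75% of genes with Pol2 at a TSS and 2 of 14 housekeeping genes (14.3%). Glucose and glycogen genes had such a row at 7 of 21 (33.3%), among them Ppp1r3c, a glycogen-targeting subunit, with rows 125 and 184, Hk2 with row 236 and Slc2a4, the glucose transporter GLUT4, with row 397 at its promoter. Fatty acid oxidation and lipid storage had 3 of 24 (12.5%), namely Plin4 and its neighbour Plin5, which share rows 34 and 905, and Ucp3, a mitochondrial uncoupling protein, with row 62. Row 62 lay in an intron of C2cd3, 11136 bases from a TSS of Ucp3. Insulin and IGF signalling had 4 of 23 (17.4%), with Sesn1, a restraint on mTOR, at row 293 and Eif4ebp1, a translation repressor, at row 669. Pik3r1, which encodes a PI3-kinase subunit, had none within 25 kb, and row 75, with a GRE and Pol2, lay 43886 bases from its TSS.

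The lists of atrophy, sarcomere, muscle transcription factor and clock genes had shares between 11.1% and 30%, and muscle fibre markers had 6 of 12 (50%), beside the same background. Atrophy and proteolysis genes had such a row at 6 of 20 (30%). Foxo3, a forkhead factor of atrophy, had row 40 in an intron, Trim63, the gene of the atrophy ligase MuRF1, had row 422 at 4868 bases, and neither had a GRE. Fbxo32, which encodes atrogin-1, had no row of the first 1000 and 4 other GR peaks within 25 kb. Sarcomere and calcium handling genes had 6 of 24 (25%), with Tnni2, a fast troponin I, at row 113 and Ttn, which encodes titin, at rows 169 and 489. Row 113 lay in an intron of Lsp1, its nearest gene, and 19125 bases from a TSS of Tnni2. Both Ttn rows lay in introns with a GRE and Pol2. Muscle transcription factors had 2 of 18 (11.1%), Tead4 at row 349 and Mef2a at row 883. Clock genes had 5 of 19 (26.3%), with Per2 at row 78, which held 2 GREs, and Tef, a PAR-domain factor gene, at row 47. Nr3c1, the gene of GR, had none, nor had Myod1, Mstn, which encodes myostatin, or the liver gene Alb.

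Markers of muscle fibres and of other cells checked the tissue label. Pol2 peaks stood within 1 kb of a start site at 12 of 12 muscle fibre markers, 4 of 10 endothelial, 8 of 10 fibroblast, 4 of 9 satellite cell, 1 of 11 immune, 1 of 8 adipocyte, 0 of 10 liver and 0 of 10 neuron markers. A row of the first 1000 lay within 25 kb of 6 muscle fibre markers and 2 satellite cell markers, and of none of the endothelial, fibroblast, immune, adipocyte, liver or neuron markers. Pol2 was thus present at some markers of endothelial cells and fibroblasts too, and the part of other cells in the GR peaks was not tested. Over all protein-coding genes, Pol2 stood within 1 kb of a TSS at 46.8%, and a first-1000 row lay within 25 kb at 4.05%. Beside that last share, lists of 8 to 11 genes are too short for an empty count to set them apart.

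**Figure D5:**
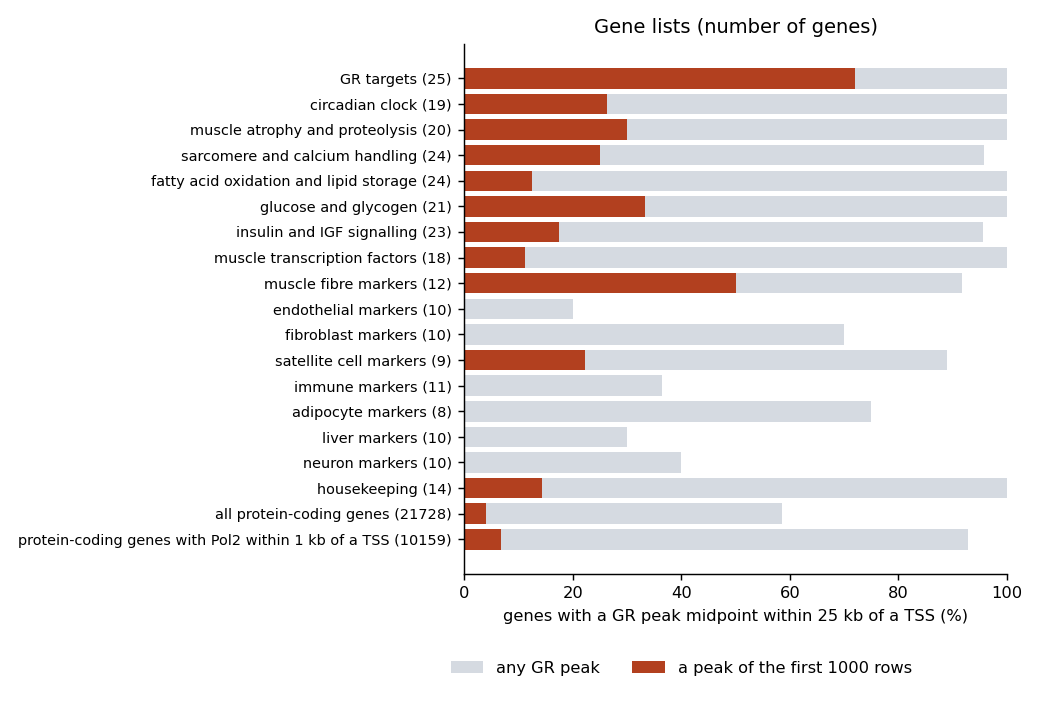
Share of genes (%) in each list with the midpoint of a GR peak no farther than 25 kb from a TSS, for any GR peak (grey) and for the first 1000 rows (red), with the number of genes in parentheses. GR targets stand at 72% for the first 1000 rows, muscle fibre markers at 50% and all protein-coding genes at 4.05%.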

How the data were processed

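The work rests on 6 deposited peak lists, 1 per antibody, and their depth was not given in the sources used here. Tools listed in the submitters' processing notes are Bowtie 1.0.0, MACS2 (no version) and bcl2fastq 2.17.1.14, with build mm10 and no role, order or threshold. All lists hold deposited peak positions in bases. For CTCF and H3K4me3 the authors also deposited a score, a fold (ratio) of enrichment, and each peak's −log10 p-value and −log10 q-value, in columns told from their values as no header names them; of these only the fold was printed.

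Of 23196 GR rows, 8 on the mitochondrial genome and 1 on chromosome Y were dropped. Overlap meant at least 1 shared base. Genes and TSS were protein-coding transcripts of GENCODE M21, and sequence was RefSeq's GRCm38. Shares carry exact Clopper-Pearson 95% intervals and differences Newcombe 95% intervals, for counting error only. Reads copied by PCR were not counted as molecules, which the intervals do not cover. No p-value was computed, since there is 1 library per antibody. Code was tested on simulated data and ran on Python 3.11.15 with pandas 2.3.3 and SciPy 1.17.1.

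Members, gene lists and motifs were chosen with earlier results of these data known. Named genes are those nearest the first 10 rows and the 10 widest of the first 1000, the 10 with most such rows within 25 kb, up to 3 per list with the earliest row in the first 8 lists, and 20 fixed genes; others were chosen after their values were seen. The rule also gave 2 genes that are not reported here. Alternatives were the first 500 or 2000 rows, merging rows within 1 kb, 10 strata of width, 50% coverage, the central 200 bases, other TSS windows and annotation, other GRE definitions and windows, and the whole peak, which was added after seeing the data.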

Additional observations from a re-analysis of the deposited data

How the results depend on the processing

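Across 10 differences (first minus remaining rows, in percentage points) and 61 alternative values, 24 stayed within the 95% interval of the reported value, 34 moved outside it in the same direction and 3 reversed. The cause was not tested except where the alternative itself takes other rows or a smaller window. Within 10 strata of width H3K27ac reversed to -11.6 and no histone mark to 1.75, while H3K4me1 was 25.5, H3K4me3 and the promoter class -48.7, Pol2 -30.2 and TSS within 1 kb -45.9. With the central 200 bases H3K27ac reversed to -0.265 and the enhancer class was 28.2. With 50% of the GR peak covered H3K27ac was 1.65, Pol2 -12.1 and the enhancer class 21.5. With the first 500 rows H3K27ac was 13.2, H3K4me1 23.5, H3K4me3 and the promoter class -35.8, Pol2 -3.22 (interval -7.61 to 1.21), the enhancer class 43.1, no histone mark -4.68, TSS within 1 kb -35 and the GRE 38.3. With the first 2000 rows H3K4me1 was 8.05, H3K4me3 and the promoter class -20.1, Pol2 -3.17, CTCF -3.16, the enhancer class 20, TSS within 1 kb -18.9 and the GRE 22.5. With rows within 1 kb merged, 19376 regions of which 977 held a first-1000 row, H3K27ac was 9.63, H3K4me3 and the promoter class -27.9 and TSS within 1 kb -27.5. TSS of all annotated genes gave -28.2. The GRE difference was 25.4 for the palindrome with up to 2 mismatches, 25.7 in a window of 100 bases and 35.9 over the whole GR peak. No paired analysis was possible because there is 1 library per antibody. The unknown depth sets which peaks could be called, and single libraries leave variation between animals unmeasured.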
